A study of Drosophila melanogaster with 6 samples.

Results

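The active zone is the patch of presynaptic membrane where synaptic vesicles dock and fuse. In flies its electron-dense centre, the T-bar, is built around the scaffold protein Bruchpilot, and around it sit proteins that hold calcium channels, tether vesicles and prime them for release. At the fly neuromuscular junction, Syd-1 and Liprin-alpha mark new sites early, and Bruchpilot and other release proteins accumulate there later. Transcript levels of 10 genes of this machinery, picked by symbol, were followed in olfactory projection neurons, the output cells of the antennal lobe, which relay odour signals to the mushroom body and lateral horn. All 10 were found among 14138 genes of the table. By role they fall into the early site markers RhoGAP100F (the gene of fly Syd-1) and Liprin-alpha, the T-bar scaffold gene brp, the vesicle priming gene unc-13, and the genes Rim, Rbp and Fife of further scaffold proteins. The other 3 are Rab3-GEF, which encodes an exchange factor for the vesicle GTPase Rab3, and Syn and Sap47. Synapsin (Syn) and Sap47 are synaptic proteins associated with vesicles, so the label of a scaffold does not describe them.

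The series compares untreated Drosophila melanogaster at 2 stages: 36 h after puparium formation (development, 3 libraries) and adults of 5 days (3 libraries). Cells with a GFP marker were sorted, about 2000 for each library, and full-length cDNA libraries were made by SMART-seq2. The labels name no strain, sex, driver line or transgene, and do not say if replicates are separate collections of flies; p-values then reflect only the spread among these libraries, which could be technical. At the earlier stage the neurons are still wiring, whereas most synapses of the fly brain form later in pupal life.

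Levels are in CPM (counts per 1000000 counted reads), and recovered library depths were 18602612 to 42217764 reads. Within development, replicate 1 lay farther from replicates 3 and 2 (chi-square of read counts per degree of freedom 55.81 and 68.01) than those 2 lay from each other (17.04). The adult pairs gave 41.95, 44.05 and 60.38. The 3 neuronal markers summed to 2160 to 3140 CPM in development and 2750 to 3070 CPM in adult. Among them elav lay at 167 to 359 and 194 to 226 CPM, nSyb at 1010 to 1730 and 2090 to 2360 CPM, and fne at 986 to 1160 and 446 to 486 CPM. The 6 projection neuron markers summed to 722 to 837 CPM in development and 1210 to 1340 CPM in adult. Of these, acj6 lay at 162 to 181 and 140 to 152 CPM and Oaz at 427 to 484 and 283 to 305 CPM. In the same order of stages, vvl lay at 24.4 to 36.7 and 16.3 to 17.7 CPM, while Lim1 reached no more than 8.58 CPM. The cholinergic genes of this list were higher in adult, with ChAT at 37.6 to 53.7 and 556 to 586 CPM and VAChT at 57.5 to 99.1 and 173 to 275 CPM. The glial identity gene repo stayed at or below 1.34 CPM, and the 3 hemocyte markers summed to at most 1.51 CPM. The 4 muscle markers summed to 4.2 to 6.93 CPM in development and 1.28 to 2.07 CPM in adult. The 4 markers of neurons with other transmitters summed to 39.4 to 50.2 CPM in development and 236 to 496 CPM in adult, with Gad1 at 98.1 to 120 CPM in adult, and 3 of them rose. The 7 glial markers summed to 302 to 341 CPM and 474 to 616 CPM, with 2 higher and 2 lower. Among them Gs2 lay at 44.1 to 61.9 and 256 to 375 CPM and alrm at 3.42 to 11.2 and 20.9 to 32.9 CPM. In the other direction, nrv2 lay at 229 to 251 and 179 to 205 CPM and wrapper at 6.29 to 7.56 and 1.89 to 6.06 CPM. Orco, the co-receptor gene of olfactory receptor neurons, went from 0.782 to 2.6 CPM up to 23.2 to 36 CPM. The 3 photoreceptor markers summed to 0.161 to 1.71 CPM and 12.2 to 18.2 CPM. The 3 Kenyon cell markers summed to 20.4 to 27.4 and 31.4 to 40.6 CPM, and the 4 markers of dividing cells to 12 to 16.9 and 3.54 to 7.96 CPM. The 3 fat body markers summed to 35.1 to 50.1 and 16.4 to 24.7 CPM, with Fbp1 and Lsp2 lower and Yp1 higher in adult. Apart from the neuronal and hemocyte lists, whose ranges overlapped, these sums moved with the stage, as did the genes below, and their part in the results was not tested.

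Of the 10 genes, 6 rose and 2 fell between development and adult, and 2 were not called (limma on log2(CPM + 1), adjusted p under 0.05 over 6814 genes tested). Without development replicate 1 the counts were 7 higher and 1 lower. The 10 genes did not move as a block. Fife, Rab3-GEF and Sap47 rose by more than 4-fold, Rim and Rbp by more than 2-fold and Syn by a small margin. RhoGAP100F fell by more than 2-fold, and brp and unc-13, with log2 fold changes of 0.16 and -0.06, were not called. In bulk libraries, fewer cells of a type and less RNA per cell cannot be told apart, and a change in CPM is relative to all other transcripts.

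All 10 genes passed the filter on low values. Changes were common at this comparison: 65.1% of all tested genes were called, 27.2% higher and 37.9% lower. Of the 10 genes 8 were called, to be read against that background. At least 2-fold rises were called for 5 of the 10 genes against 13.4% of all tested genes, and at least 4-fold rises for 3 of 10 against 4.55%. The single fall of at least 2-fold stands beside 18% of tested genes. The 2 groups did not overlap for 9 of the 10 genes, where 69% of tested genes showed no overlap. The median log2 fold change was 0.81 over the 10 genes and -0.153 over all tested genes. The 10 genes were chosen with earlier results of these data known, so these counts and medians are not independent of that choice. With median of ratios scaling, which moves that overall median to -0.004, 2237 genes were higher and 2174 lower, compared with 1856 and 2583 in the deposited scaling.

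**Figure D1:**
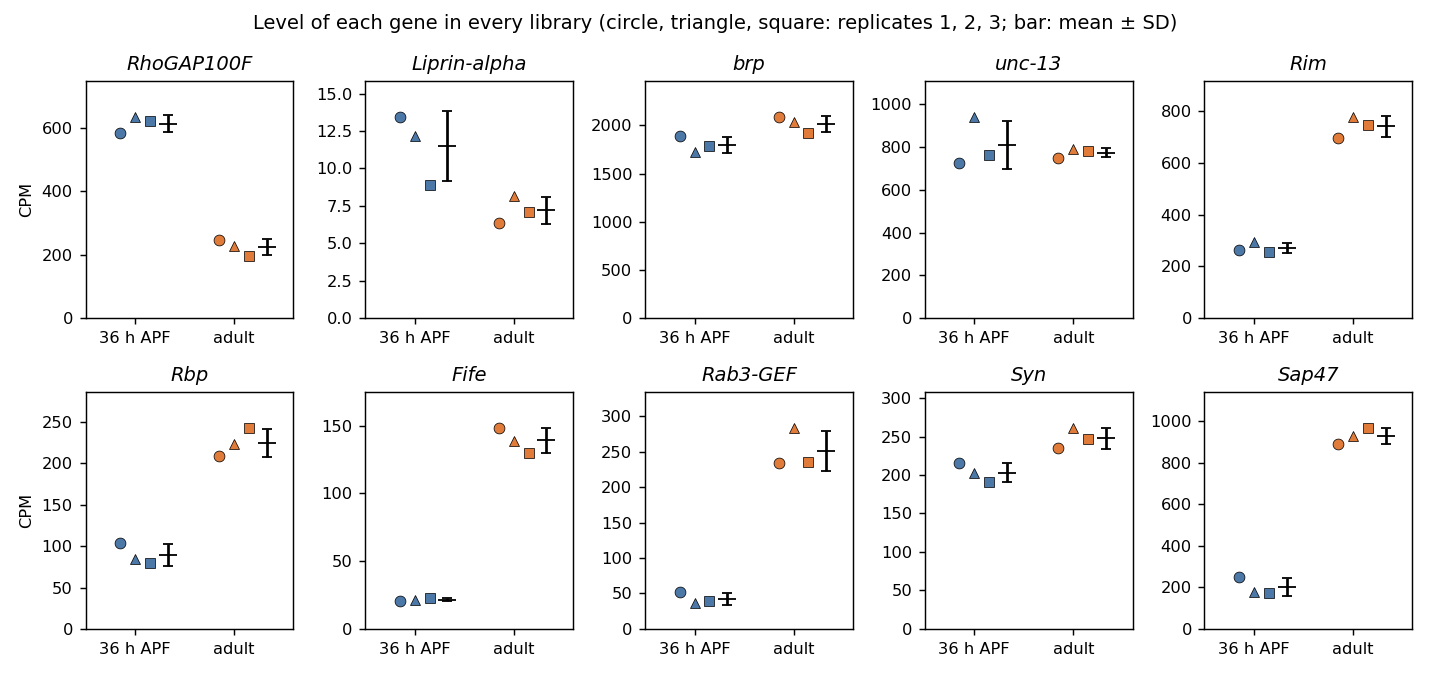
Level of each gene in CPM (y axis, from 0, with its own scale per panel) in the 3 libraries of development (36 h after puparium formation, blue) and the 3 adult libraries (orange). Circles, triangles and squares are replicates 1, 2 and 3, and the black bar is the mean ± SD. The adult libraries lie above the development libraries in 7 panels and below them in those of RhoGAP100F and Liprin-alpha, and only unc-13 overlaps.

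RhoGAP100F (FBgn0039883, 3R, 31812609 to 31846570, plus strand, in BDGP6.54) encodes Syd-1, a RhoGAP-domain protein that binds presynaptic neurexin. It had 583, 633.6 and 622.1 CPM in development replicates 1, 2 and 3, and 246.7, 228.4 and 196.8 CPM in adult. All adult libraries lay below all development libraries, by a wide gap. RhoGAP100F changed by -1.45 ± 0.105 log2 units (SE; limma, adjusted p = 4.629e-08), and its mean was 2.74-fold higher in development than in adult. This places the gene at percentile 9.1 of the fold changes of tested genes.

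Liprin-alpha (FBgn0046704, 2L, 6723903 to 6732766, plus strand) encodes an adaptor protein that binds the receptor phosphatase Lar and takes part in transport and assembly of presynaptic material. It had the fewest reads of the 10 genes in every library, at 13.42, 12.19 and 8.87 CPM in development and 6.348, 8.149 and 7.082 CPM in adult, which rest on 165 to 421 reads per library. The groups did not overlap, but the lowest development library and the highest adult library were close. Liprin-alpha changed by -0.60 ± 0.243 log2 units (SE; limma, adjusted p = 0.04456). This borderline call was lost when development replicate 1 (adjusted p = 0.1527) or 2 (0.1306) or adult replicate 1 (0.1015) or 3 (0.06903) was left out, and with median of ratios (0.1156) or TMM scaling (0.101).

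The T-bar gene brp (FBgn0259246, 2R, 9503765 to 9541565, plus strand) encodes the ELKS/CAST family protein recognised by nc82, an antibody widely used to stain fly neuropil. It had the most reads of the 10 genes in every library, at 1887, 1725 and 1781 CPM in development and 2084, 2031 and 1922 CPM in adult. Adult libraries lay above development libraries without overlap, but the gap was small. Its log2 fold change of 0.16 ± 0.083 (SE) missed the threshold (limma, adjusted p = 0.1). The 95% interval ran from -0.02 to 0.34, so a rise of more than 0.34 log2 units lies outside it in the deposited scaling only. Relative to the median of all tested genes the difference was 0.32 log2 units. The call depended on the scaling: brp was higher with median of ratios (log2 fold change 0.318, adjusted p = 0.004475) and TMM scaling (0.296, adjusted p = 0.007502) and had a negative log2 fold change of -0.0662 with quantile normalization (limma, adjusted p = 0.473). It also passed without development replicate 1 (log2 fold change 0.198, adjusted p = 0.01964).

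unc-13 (FBgn0025726, 4, 867824 to 912331, minus strand) encodes the priming factor that makes docked vesicles ready to fuse. It had 725.8, 938.5 and 763.2 CPM in development and 748.1, 792.3 and 779 CPM in adult. The adult libraries lay within the range of development, which was stretched by replicate 2. The log2 fold change was -0.06 ± 0.104 (SE; limma, adjusted p = 0.6483), with a 95% interval of -0.28 to 0.17. The sign was positive with TMM and median of ratios scaling and without development replicate 2, and the test was not passed under any setting tried. Of the exonic bases of unc-13, 15.61% overlap asRNA:CR43425, 6.47% the pseudogene CR43361 and 3.12% asRNA:CR44029, all on the opposite strand. Whether reads were counted by strand is not stated in the labels, so reads of unc-13 and of these antisense genes cannot be told apart with certainty. CR43361 and CR44029 were listed at no more than 3.719 and 9.246 CPM. No level was listed for asRNA:CR43425, which has the largest overlap, so its reads could not be judged. Gene-level values also cannot separate the isoforms of unc-13, of which the annotation holds 7 transcripts.

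Rim (FBgn0053547, 3R, 17872748 to 17916578, minus strand) encodes the Rab3-interacting scaffold that links vesicles, calcium channels and priming factors. It rose from 265.4, 294.1 and 254.1 CPM in development to 698, 776.8 and 748.5 CPM in adult. Even the lowest adult library was far above the highest development library. This was a rise of 1.45 ± 0.097 log2 units (SE; limma, adjusted p = 2.133e-08) and a 2.73-fold higher mean.

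Rbp (FBgn0262483, 3R, 15374635 to 15402543, plus strand) encodes RIM-binding protein, which joins Rim and calcium channels in the T-bar. It had 104.3, 84.76 and 79.45 CPM in development and 208.6, 223.1 and 243 CPM in adult. The groups did not overlap, and replicate 1 was the highest of the development libraries. Rbp rose by 1.33 ± 0.127 log2 units (SE; limma, adjusted p = 7.122e-07). The ratio of Rim to Rbp within a library was 2.55, 3.47 and 3.2 in development and 3.35, 3.48 and 3.08 in adult, and these ranges overlapped (exact two-sided permutation p = 0.6). Of its exonic bases 3.59% overlap h-cup on the opposite strand, which had at most 4.287 CPM.

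Fife (FBgn0264606, 3L, 2655415 to 2711690, minus strand) encodes a Piccolo-RIM related protein that promotes vesicle docking at the fly neuromuscular junction. It showed the largest change of the 10 genes, from 20.55, 21.28 and 22.74 CPM in development to 148.4, 139.1 and 130.2 CPM in adult. Its development libraries were nearly equal, with a coefficient of variation of 5.17%. Fife rose by 2.64 ± 0.136 log2 units (SE; limma, adjusted p = 1.773e-09), at percentile 97.3 of all tested genes, and the mean was 6.47-fold higher in adult.

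Rab3-GEF (FBgn0030613, X, 15089682 to 15113762, plus strand) encodes a DENN-domain protein whose mammalian relative, MADD, loads Rab3 with GTP. It had 51.7, 35.9 and 39.3 CPM in development and 233.4, 283.6 and 235.6 CPM in adult. The groups were far apart, and development replicate 1 was 37.5% above the mean of the other 2 libraries of its stage. Rab3-GEF rose by 2.55 ± 0.149 log2 units (SE; limma, adjusted p = 5.792e-09) and by 2.7 without that library. Cyp4s3, which shares 5.29% of the exonic bases of Rab3-GEF on the opposite strand, had at most 0.1526 CPM.

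The vesicle-associated pair differed in size of change. Sap47 (FBgn0013334, 3R, 15935100 to 15962124, plus strand) rose from 251.7, 180.2 and 173.1 CPM to 890.8, 931.6 and 968.2 CPM. As for Rab3-GEF, development replicate 1 was the highest of its group, here by 42.5% over the mean of the other 2 libraries, and the groups did not overlap. Its rise was 2.22 ± 0.129 log2 units (SE; limma, adjusted p = 5.674e-09) and 2.39 without development replicate 1.

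Syn (FBgn0004575, 3R, 10190689 to 10222442, plus strand), the single synapsin gene of the fly, had 215.4, 202.4 and 191.3 CPM in development and 234.8, 261.2 and 246.6 CPM in adult. The groups were adjacent without overlap. Syn rose by 0.28 ± 0.102 log2 units (SE; limma, adjusted p = 0.02533), a call that was lost without development replicate 2 (adjusted p = 0.06842) or 3 (0.09309) and without adult replicate 2 (0.1047) or 3 (0.05905). The ratio of Sap47 to Syn was 0.891 to 1.17 in development and 3.57 to 3.93 in adult. These ranges were separate (exact two-sided permutation p = 0.1, the lowest value possible with 3 libraries in each group). Timp, on the opposite strand, overlaps 4.29% of the exonic bases of Syn and was listed at 0.1447 to 15.2 CPM.

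**Figure D2:**
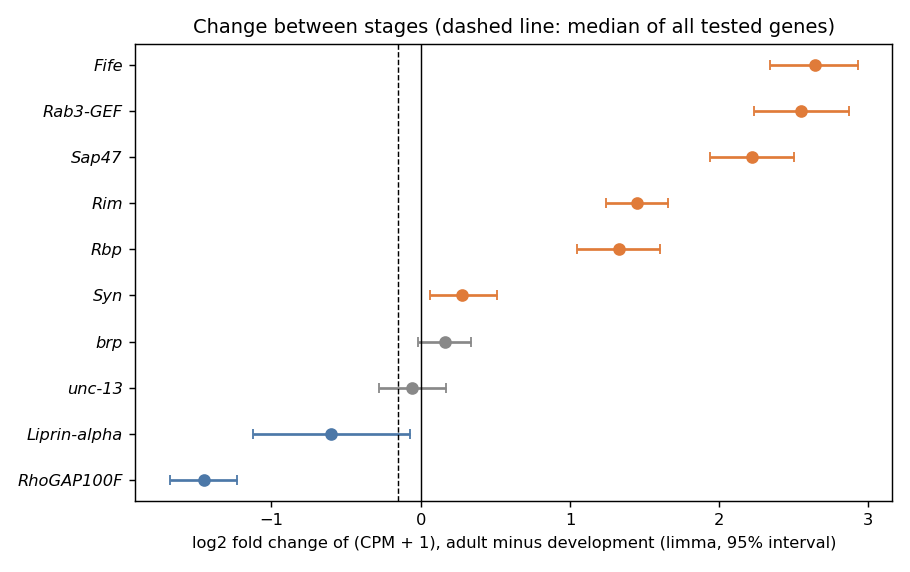
Log2 fold change of CPM + 1, adult minus development (x axis), for each of the 10 genes (y axis), with 95% intervals from limma. Orange genes were called higher and blue ones lower at an adjusted p under 0.05, and grey ones were not called. The solid line is 0 and the dashed line the median of all tested genes, -0.153. Fife, Rab3-GEF and Sap47 lie above 2, while the intervals of brp and unc-13 include 0.

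Because each gene changed by its own amount, the makeup of the 10 transcripts differed between stages. Their summed level was 4118, 4128 and 3935 CPM in development and 5499, 5675 and 5477 CPM in adult. Without brp, the other 9 genes summed to 2154 to 2403 CPM and 3415 to 3644 CPM, so most of the difference came from genes other than brp. As a share of the sum, brp made up 44.3% ± 2.18 in development and 36.3% ± 1.46 in adult (SD, n = 3 each), a difference of -8.03 percentage points. That difference was -3.18 points without Syn and Sap47, where the brp shares of the 2 stages overlapped. It was -12.4 points with levels per kilobase. The share of RhoGAP100F went from 15.1% ± 0.853 to 4.03% ± 0.446, and that of unc-13 from 19.9% ± 2.59 to 13.9% ± 0.311. In the other direction, the share of Sap47 went from 4.96% ± 0.999 to 16.8% ± 0.799 and that of Rim from 6.68% ± 0.388 to 13.3% ± 0.569. With levels per kilobase these differences went from 11.8 to 18.7 points for Sap47 and from 6.67 to 4.25 points for Rim.

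Smaller shares moved the same way as the levels of their genes for Rbp (2.2% to 4.05%), Fife (0.531% to 2.51%), Rab3-GEF (1.04% to 4.51%) and Liprin-alpha (0.282% to 0.129%). The share of Syn went from 5% to 4.46% while its level rose. Per kilobase, the differences grew from -0.54 to -2.54 points for Syn and from -0.153 to -0.347 points for Liprin-alpha. For all 10 genes the shares of the 2 stages did not overlap, 5 higher and 5 lower in adult, with an exact two-sided permutation p of 0.1 each and 0.1 after Benjamini-Hochberg adjustment over the 10 shares. No share could have given a lower p with 3 against 3 libraries. Shares of 1 sum depend on each other, so a gene whose level was nearly steady, such as unc-13, has a lower share where others rose. Without Syn and Sap47 the share was lower in every adult library for 3 of 8 genes rather than 5 of 10. Apart from Syn, which was left out, the gene that dropped from that count was brp.

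Set against brp, which serves here as a common yardstick within each library, Rim stood at 14.1, 17 and 14.3 CPM per 100 CPM of brp in development and 33.5, 38.2 and 38.9 in adult. RhoGAP100F went the opposite way, from 30.9, 36.7 and 34.9 to 11.8, 11.2 and 10.2. The order of these genes therefore crossed: the ratio of Rim to RhoGAP100F was 0.408 to 0.464 in development and 2.83 to 3.8 in adult (exact two-sided permutation p = 0.1, the smallest possible). Syn stood at 10.7 to 11.7 CPM per 100 CPM of brp in development and 11.3 to 12.9 in adult, and these ranges overlapped. These ratios do not change with the scaling of a library.

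**Figure D3:**
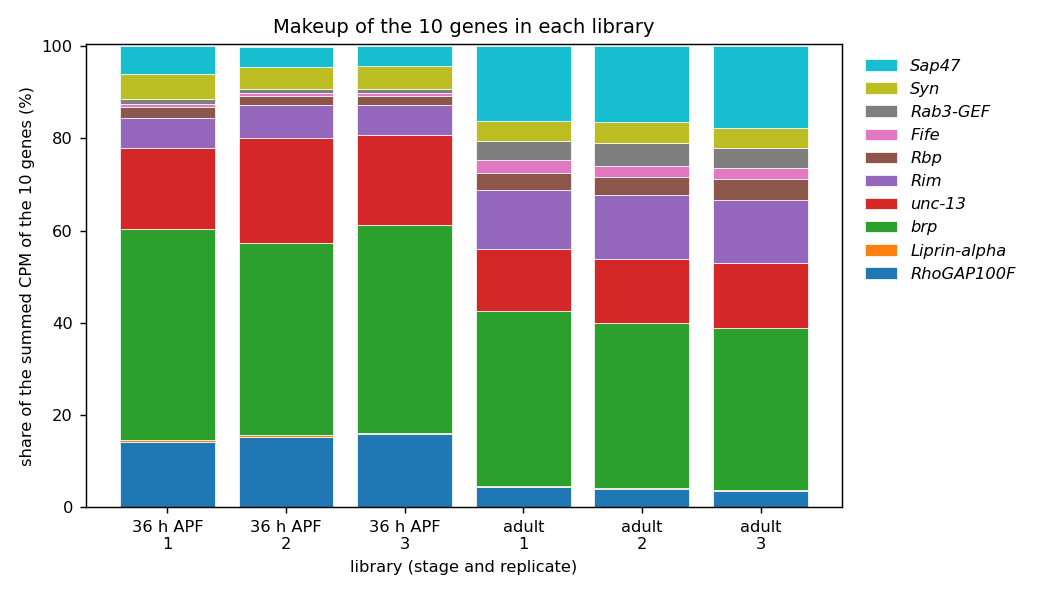
Share of each gene in the summed CPM of the 10 genes (y axis, %) in each of the 6 libraries (x axis, stage and replicate). The band of RhoGAP100F narrows from 14.2% to 15.8% in development to 3.59% to 4.49% in adult, and the band of Sap47 widens from 4.37% to 6.11% to between 16.2% and 17.7%.

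Levels can be compared between genes only per length. Divided by all annotated exonic bases of the gene (BDGP6.54, Ensembl release 115), brp led in development at 134 CPM per kilobase, followed by RhoGAP100F at 46.8. The next genes, unc-13 (35.8), Syn (35) and Sap47 (31.5 CPM per kilobase), had overlapping ranges between neighbours. Below them came Rim at 19, Rbp at 9.81 and Rab3-GEF at 4.85 CPM per kilobase. At the bottom Fife (2.22) and Liprin-alpha (1.85 CPM per kilobase) overlapped.

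In adult the length-corrected level of Sap47, 145 CPM per kilobase, reached that of brp, 151, and their ranges overlapped. Rim was the third at 52 CPM per kilobase, followed by Syn at 42.7, unc-13 at 34.2, Rab3-GEF at 28.8 and Rbp at 24.7, each apart from its neighbours. RhoGAP100F, the second gene of development, was the eighth in adult at 17.1 CPM per kilobase and overlapped Fife at 14.4. Liprin-alpha remained the lowest at 1.16 CPM per kilobase. The position of unc-13 depends on the length used, since its exons cover 22598 bases and its canonical transcript 10285. With canonical lengths, chosen after seeing the data, unc-13 was the second gene in development at 78.7 CPM per kilobase and the third in adult at 75.2, and 6 of the 10 ranks in development and 3 in adult were kept.

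**Figure D4:**
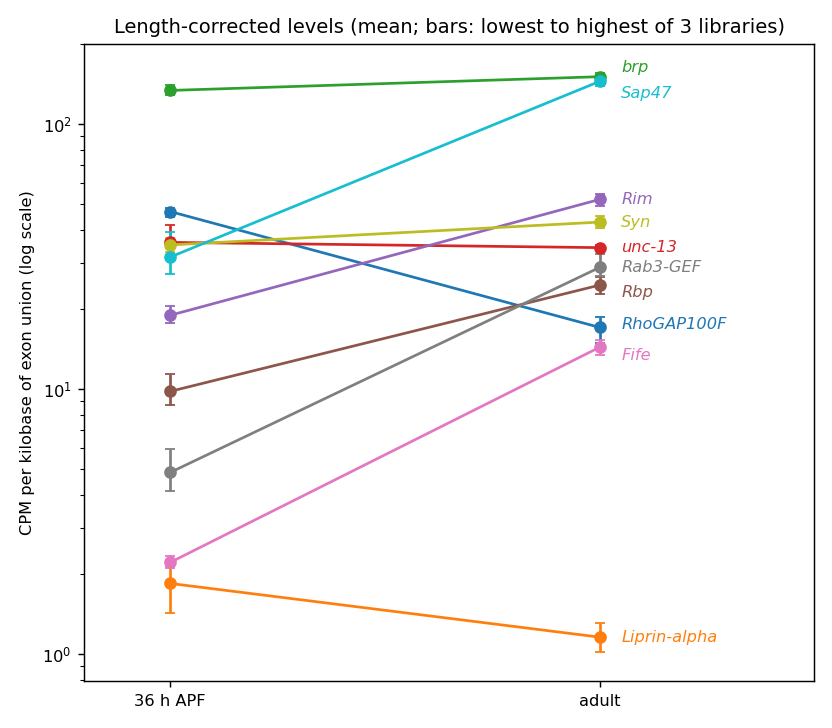
CPM per kilobase of exonic bases (y axis, log scale) of each gene at 36 h after puparium formation and in adult. Points are means and bars run from the lowest to the highest of 3 libraries. Sap47 climbs from 31.5 to 145 beside brp, and RhoGAP100F drops from 46.8 to 17.1.

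Genes that work with the active zone were examined in 4 lists. Of the 16 tested genes of the calcium channel and the release machinery, 10 rose and 1 fell, with a median log2 fold change of 0.77. The gene that fell was cac, which encodes the presynaptic calcium channel that Rim and Rbp hold in place, from 359.4 ± 3.584 to 241.8 ± 14.88 CPM (SD, n = 3; log2 fold change -0.57, limma, adjusted p = 0.0001431). Its auxiliary subunit genes stj and Ca-beta were not called, with log2 fold changes of -0.20 (95% interval -0.45 to 0.04) and -0.25 (-0.66 to 0.16). Without development replicate 1, stj was lower (log2 fold change -0.295, limma, adjusted p = 0.01458) and the sign of Ca-beta was positive (0.0428, adjusted p = 0.7192). The largest rises were those of comt, the gene of the fusion ATPase NSF (log2 fold change 3.47), of cpx, which encodes the SNARE clamp complexin (2.00), and of Tomosyn, which encodes an inhibitor of SNARE assembly (1.84), each with an adjusted p of 9.399e-09 or lower (limma). Rab3, the partner of Rim and substrate of Rab3-GEF, rose from 1651 ± 89.48 to 4053 ± 120.6 CPM. The t-SNARE gene Syx1A rose from 666.6 ± 50.17 to 1466 ± 38.91 CPM.

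Of 18 tested genes of synapse organisation and assembly, 9 rose and 2 fell, with a median log2 fold change of 0.35. The neurexin gene Nrx-1, whose product binds Syd-1, rose by 1.04 ± 0.245 log2 units (SE; limma, adjusted p = 0.002088), with development libraries as far apart as 381.5, 147.5 and 182 CPM. The largest rise was that of nwk (log2 fold change 2.90), which encodes a membrane-remodelling protein of nerve terminals. The falls were those of Srpk79D, the gene of a kinase that keeps Bruchpilot from clustering in axons (log2 fold change -0.91; limma, adjusted p = 4.217e-05), and of the neuroligin gene Nlg4 (-0.63, adjusted p = 0.01733), whose call was lost without adult replicate 3 (0.07537) and with TMM (0.05586), median of ratios (0.06036) or quantile scaling (0.0668). The kinesin gene unc-104, whose motor carries presynaptic material along the axon, rose from 3683 ± 258.5 to 6893 ± 367.6 CPM. Lar, the receptor partner of Liprin-alpha, had 69.59 ± 2.031 and 62.72 ± 7.504 CPM and was not called (limma, adjusted p = 0.3356).

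Of 20 tested vesicle cycle genes, 12 rose and 2 fell, with a median log2 fold change of 0.88. Syngr, the synaptogyrin gene, had 0 to 5 reads per library in development and 863 to 1204 reads per library in adult. Sytalpha, which encodes a synaptotagmin family member, rose by 3.04 log2 units. It had only 30 to 49 reads per library in development, and its log2 fold change was 3.68 with a pseudocount of 0.1 and 1.88 with 5. Syngr, Sytalpha and Sytbeta, all counted as rises, lay below 5 CPM in every development library. They passed the filter on low values only through their adult libraries. The vesicular monoamine transporter gene Vmat, which is also among the markers of neurons with other transmitters, rose by 4.18 log2 units with adult libraries at 92.2, 148.4 and 300.4 CPM. The genes of the clathrin heavy and light chains, Chc and Clc, fell by 0.56 and by 0.29 log2 units (limma, adjusted p = 0.001797 and 0.01758), the latter lost without development replicate 2 (0.06375) or adult replicate 2 (0.05655) and with median of ratios (0.2378), TMM (0.158) or quantile scaling (0.142).

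The 7 postsynaptic scaffold genes showed 5 falls and 1 rise, with a median log2 fold change of -0.53. The smallest of these falls was that of veli (log2 fold change -0.27; limma, adjusted p = 0.03762). The number of falls was 4 with TMM, median of ratios or quantile scaling and in limma without a trend. It was also 4 with a filter at 20 CPM and without development replicate 2 or adult replicate 1 or 2. Grip, which encodes a PDZ-domain adaptor, fell by 3.67 ± 0.294 log2 units (SE; limma, adjusted p = 1.195e-07). It had 464 to 960 reads per library in development and only 30 to 78 in adult. The size of its fall therefore depended on the pseudocount, with a log2 fold change of -4.44 at 0.1 and -2.36 at 5. Every adult library of Grip lay below 5 CPM, so the gene passed the filter on low values only through its development libraries. Magi fell by 1.36 and the Shank gene Prosap fell by 0.54 log2 units. The gene that rose was metro, which encodes a membrane-associated guanylate kinase (log2 fold change 0.91, adjusted p = 0.0002341). The discs large gene dlg1 fell by 0.53 log2 units. The share of genes called higher was 62.5% in the release list, 50% in the assembly list, 60% in the vesicle cycle list and 14.3% in the postsynaptic list, against 27.2% of all tested genes. The share called lower was 6.25%, 11.1%, 10% and 71.4% in the same order, against 37.9% of all tested genes. The lists were chosen with earlier results of these data known, so these shares are not independent of that choice. Syngr, Sytalpha and Sytbeta, counted as higher, and Grip, counted as lower, entered these shares only through the stage where they were high. No test compared the lists with each other. Markers of neurons with other transmitters rose in the same adult libraries (39.4 to 50.2 against 236 to 496 CPM), and their part in these counts was not tested. The markers and lists share genes: VGAT, VGlut and Vmat are also in the vesicle cycle list, where VGAT and Vmat count as rises. The projection neuron marker VAChT is a further rise of that list, and the neuronal marker nSyb a rise of the release list.

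**Figure D5:**
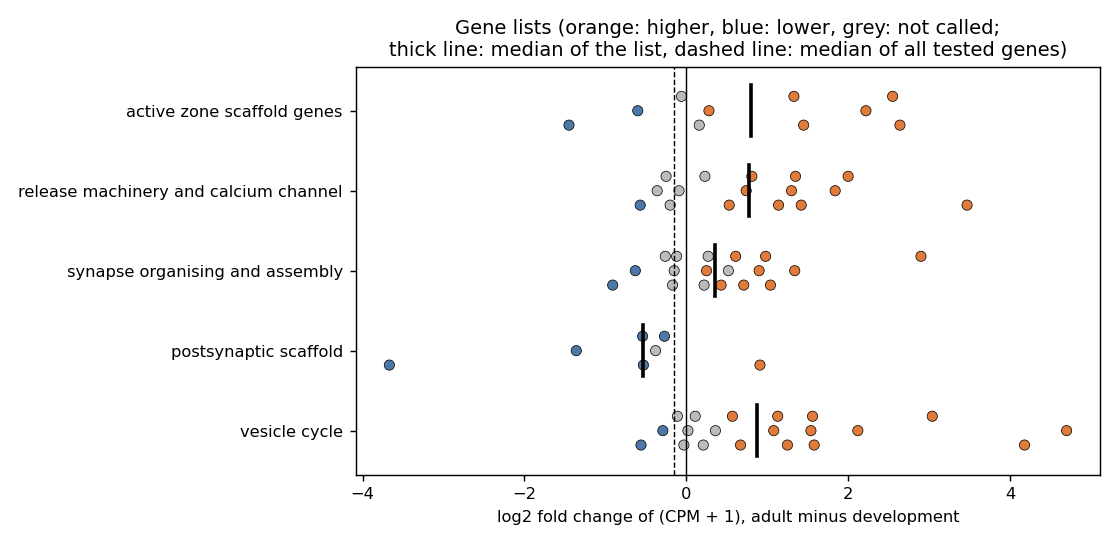
Log2 fold change of CPM + 1, adult minus development (x axis), of each tested gene in the 10 active zone genes and 4 lists of partner genes (y axis). Orange points were called higher, blue points lower and grey points not called (limma, adjusted p under 0.05). The thick line is the median of a list and the dashed line that of all tested genes, and the postsynaptic list is the one with a negative median, -0.53.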

How the data were processed

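The deposited table holds log2 values for 6 libraries, which are log2(CPM + 1), since each library sums to 1000000 after conversion. The submitters' processing notes list STAR 2.4.2a and HTSeq 0.7.1 with no role for either. The build, gene models, filters and strand setting of the counting are not stated. Of 14139 rows, 1 without a symbol was left out. In each library the small CPM values were multiples of the value of 1 read (100% within a tolerance of 0.1 read), which gave the read numbers.

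Genes with at least 5 CPM in at least 3 libraries, 6814 in all, entered a two-sided limma 3.58.1 fit in R 4.3.3 (eBayes, intensity trend) of log2(CPM + 1) on group, and p was adjusted by Benjamini-Hochberg with a threshold of 0.05. The pseudocount of 1 understates the change of low genes. The code was tested on simulated data. Shares were compared by exact permutation (scipy 1.17.1). The members and lists were chosen with earlier results of these data known. All 10 members are named, as are up to 3 rising and 3 falling genes with the largest change in each list; other genes of the lists named here were chosen after their values were seen. The result of 1 listed gene is not reported here. Of the listed symbols, CAPS, stnA and stnB were not matched, Nlg1 did not pass the filter, and Arl8 is listed as Gie. Coordinates and lengths are those of BDGP6.54, which may not be the build the authors used.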

Additional observations from a re-analysis of the deposited data

How the results depend on the processing

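Across 17 alternative fits, Rim, Rbp, Fife, Rab3-GEF, Sap47 and RhoGAP100F kept their direction and an adjusted p under 0.05 (limma; highest adjusted p 0.000266). The call of Liprin-alpha ended in 9 of its 16 alternatives: its log2 fold change was -0.655 with a pseudocount of 0.1, -0.596 with no filter, -0.477 with TMM and -0.457 with median of ratios scaling, and it did not reach a filter at 20 CPM. The number of members called lower was 1 instead of 2 under each of these settings. Replicate numbers did not pair the libraries (correlations of same-numbered deviations -0.028, 0.042 and -0.011); with a replicate block, Liprin-alpha kept -0.596 (adjusted p = 0.05951), 1 member was lower and 6 were higher. For brp the log2 fold change was 0.296 with TMM, 0.318 with median of ratios, 0.197 with array weights (these 3 past the threshold) and -0.0662 with quantile normalization. For unc-13 it was 0.0763 with TMM and 0.0978 with median of ratios, without a call. Syn kept 0.285 in limma without a trend but lost its call (adjusted p = 0.06517). The cause of these changes was not tested.

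Leaving out 1 library at a time gave log2 fold changes of 0.134 to 0.198 for brp, -0.131 to 0.0544 for unc-13, -0.757 to -0.484 for Liprin-alpha and 0.243 to 0.328 for Syn, with 5 to 7 members higher and 1 to 2 lower. Among partner genes, Ca-beta ran from -0.439 to 0.0428, and Nrx-1 lost its call with no filter (adjusted p = 0.0548), as did Nlg4 (0.06896). Shares were lower in every adult library for 5 of 10 members, and for 3 of 8 without Syn and Sap47; a pseudocount has no place in shares, so that alternative gave no value. The edgeR and DESeq2 tests were not run, since the deposited unit is log2; limma voom on recovered reads stood in. Liprin-alpha, at 165 to 421 reads per library, is the member most limited by depth.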
